A study of Mus musculus with 34 samples.

Results

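Lungs that had received 54 µg of carbon nanotubes, with the 3 materials of the series pooled, were compared with control lungs. The comparison used 20 of the 34 arrays of the series: all 15 arrays at 54 µg, 5 each of the materials coded NRCWE-043, NRCWE-044 and NRCWE-045, and all 5 arrays at 0 µg. Arrays were chosen by the dose in their labels, and each material was given equal weight. All mice were female C57BL/6, aged 5 to 7 weeks per the labels, with no genetic change named. Those at 54 µg had received a single intratracheal instillation in 40 µl, and lungs were taken 28 days later. The controls carry 0 µg and the same day, and the labels do not say whether they were instilled or with what. One of the 5, control replicate 3, has NRCWE-043 with 0 µg in its title, while its treatment is given as Control, and was counted as a control. The other 14 arrays are lungs at 18 µg of the same materials. The stated purpose of the series was a ranking of nanomaterials by their potency to perturb lung pathways.

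On all arrays the lung RNA was labelled with Cy5 and set against a Cy3-labelled universal reference, RNA pooled from 11 mouse cell lines. A level below is the log2 ratio of lung to reference, and a difference is the mean log2 level at 54 µg minus that of the controls, with its standard error (SE). The RNA came from randomly picked pieces of frozen lung, and liver and heart had been removed at the same necropsy. A lower level of a cell marker in such bulk tissue can mean fewer cells of that type or less RNA per cell, which cannot be told apart here. The labels do not state outright that each sample came from its own mouse, so p-values measure only the spread between these samples.

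Carbon nanotubes that reach the airspaces are engulfed by macrophages but are cleared slowly. Macrophages loaded with such fibres release chemokines and cytokines that draw in monocytes, granulocytes and lymphocytes, and the lung itself can make acute phase proteins such as serum amyloid A. In the weeks after a dose, lymphocytes can gather around airways and vessels, and fibroblasts can lay down matrix near the particles.

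The lung channel was well above background for 50.8 to 68.5% of an array's probes. The defining markers of lung were present: Sftpc, the surfactant protein of alveolar type 2 cells, stood at 7.09 to 8.93 (log2 level) in the lungs at 54 µg and 7.93 to 8.32 in the controls, and the club cell secretoglobin Scgb1a1 at 7.26 to 8.50 and 7.35 to 8.26. The arrays lay on 6 slides scanned on separate days, and 4 slides held controls, so differences could also be taken within those slides. Heart muscle genes varied widely. Myh6, a myosin heavy chain of heart muscle, had a lowest level of -0.15, a median of 1.18 and a highest of 6.80 in the lungs at 54 µg. Its levels were 5.97, 4.15, 5.89, 5.48 and 4.62 in the controls. Most treated lungs were below every control (9 of 15), and 3 were above every control.

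No gene passed the test of the pooled 54 µg lungs against the controls. Of 29325 units tested (17150 named genes and 12175 probes without a gene name), limma called 0 at a Benjamini-Hochberg adjusted p of 0.05 (0%), and the smallest adjusted p was 0.173. At an unadjusted p of 0.05, 1648 units (5.62%) came out, 836 higher (2.85%) and 812 lower (2.77%), beside 1466 due if nothing differed. Of these, 50.7% were higher; the share was 72.9% with the scanner software's processed signals, 78.1% with median centring in place of loess, and 60.05% with the marker scores of heart, skeletal muscle, fat and liver as covariates. With slide as a block, 1 gene passed (0.00341%), the transporter Slc16a6, and 3050 units (10.4%) had an unadjusted p under 0.05, 5.43% higher and 4.97% lower. Each material alone against the controls also gave 0 calls, and 5.63% (NRCWE-043), 5.85% (NRCWE-044) and 3.93% (NRCWE-045) of units at an unadjusted p under 0.05. The values below therefore describe the genes with the smallest p in each direction and lists of named genes, and none of these genes passed in the fit of 7 group means without a block. Array weights called Lhfp, Tspan32 and Cyth4, and leaving out NRCWE-043 replicate 4 called these and Snapc5, 4930486L24Rik and Slc30a1.

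The 12 named genes with the smallest p among those higher at 54 µg had differences between 0.36 and 0.63 (log2), with an adjusted p between 0.173 and 0.452. The 3 materials gave 0.32 to 0.66 for NRCWE-043, 0.42 to 0.82 for NRCWE-044 and 0.29 to 0.60 for NRCWE-045, each against the same 5 controls. The lungs at 18 µg, set against those controls too, gave 0.24 to 0.56. Within each of the 4 slides with a control, all 12 were higher in the lungs at 54 µg than in the controls of that slide. Over all units, 9.19% were higher within all 4 slides, but these 12 were chosen by p in the same arrays, so their count adds nothing to that choice.

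**Figure D1:**
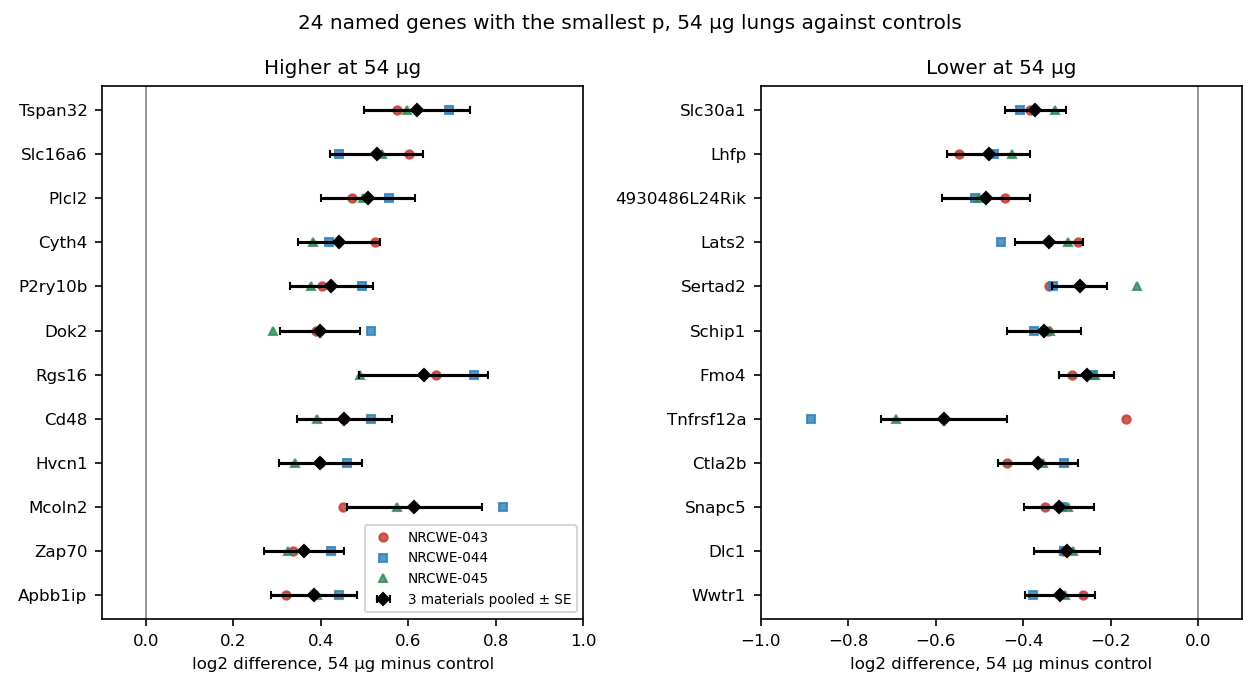
Difference between the lungs at 54 µg and the controls (log2, horizontal axis) for the 12 named genes with the smallest p in each direction (vertical axis), with the pooled value and its SE as a black diamond and bar, and the value of each material as a coloured point. The pooled values lie between 0.36 and 0.63 for the higher genes and between -0.58 and -0.25 for the lower ones, and Tnfrsf12a is the gene whose 3 materials lie farthest apart.

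Tspan32, a tetraspanin of blood cells, had levels of -0.64 (lowest), -0.26 (median) and 0.02 (highest) at 54 µg, and -0.54, -1.29, -0.93, -0.86 and -0.71 in the controls. The 2 groups overlapped through control replicate 1, and 13 of the 15 treated lungs were above every control. The difference was 0.62 (SE 0.12; 1.54-fold, 95% interval 0.37 to 0.87 on the log2 scale; adjusted p = 0.173), and 2 other probes of the gene gave 0.30 and 0.33.

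Slc16a6, of the monocarboxylate transporter family, had levels of -1.62, -1.35 and -0.89 (lowest, median and highest) at 54 µg, and -1.85, -1.97, -1.64, -2.09 and -1.81 in the controls. Every treated lung was above every control, with the closest pair nearly touching. The difference was 0.53 (SE 0.11; adjusted p = 0.173). With slide as a block it was 0.52 with an adjusted p of 0.0499, just under the threshold, while a second probe of the gene gave 0.19 (SE 0.10).

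Cyth4, an exchange factor for Arf GTPases found mainly in blood cells, had levels of 0.47, 0.76 and 1.25 at 54 µg, and 0.41, 0.35, 0.23, 0.32 and 0.33 in the controls. The groups did not overlap, and the difference was 0.44 (SE 0.09; adjusted p = 0.182). Rgs16, which shortens signalling by G protein-coupled receptors, chemokine receptors among them, had levels of -1.56, -1.30 and -0.19 at 54 µg, and -1.95, -1.90, -1.65, -1.84 and -1.80 in the controls. These groups did not overlap either, and the highest value, of NRCWE-043 replicate 1, stood far above the rest. The difference was 0.63 (SE 0.15; adjusted p = 0.395).

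Zap70, the kinase that carries the T cell receptor signal inward, differed by 0.36 (SE 0.09), with levels of -0.58, -0.15 and 0.10 at 54 µg and between -0.62 and -0.45 in the controls. Plcl2, a phospholipase C-like protein that dampens B cell receptor signalling, differed by 0.51 (SE 0.11), and 14 of 15 treated lungs were above every control. Cd48, a surface ligand of the SLAM family, differed by 0.45 (SE 0.11; 0.30 with a second probe), and the adaptor Dok2, which restrains receptor signalling in myeloid cells and T cells, by 0.40 (SE 0.09). P2ry10b, which resembles the lysophospholipid receptor gene P2ry10, differed by 0.42 (SE 0.09), but a second probe gave 0.12, and probes for such close relatives may share signal.

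Hvcn1, the proton channel that sustains the oxidative burst of phagocytes, differed by 0.40 (SE 0.10). Mcoln2, a cation channel of endosomes and lysosomes, differed by 0.61 (SE 0.15). Apbb1ip, which links the GTPase Rap1 to integrin activation, differed by 0.38 (SE 0.10). For each of these 3 genes, 13 of the 15 treated lungs were above every control.

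**Figure D2:**
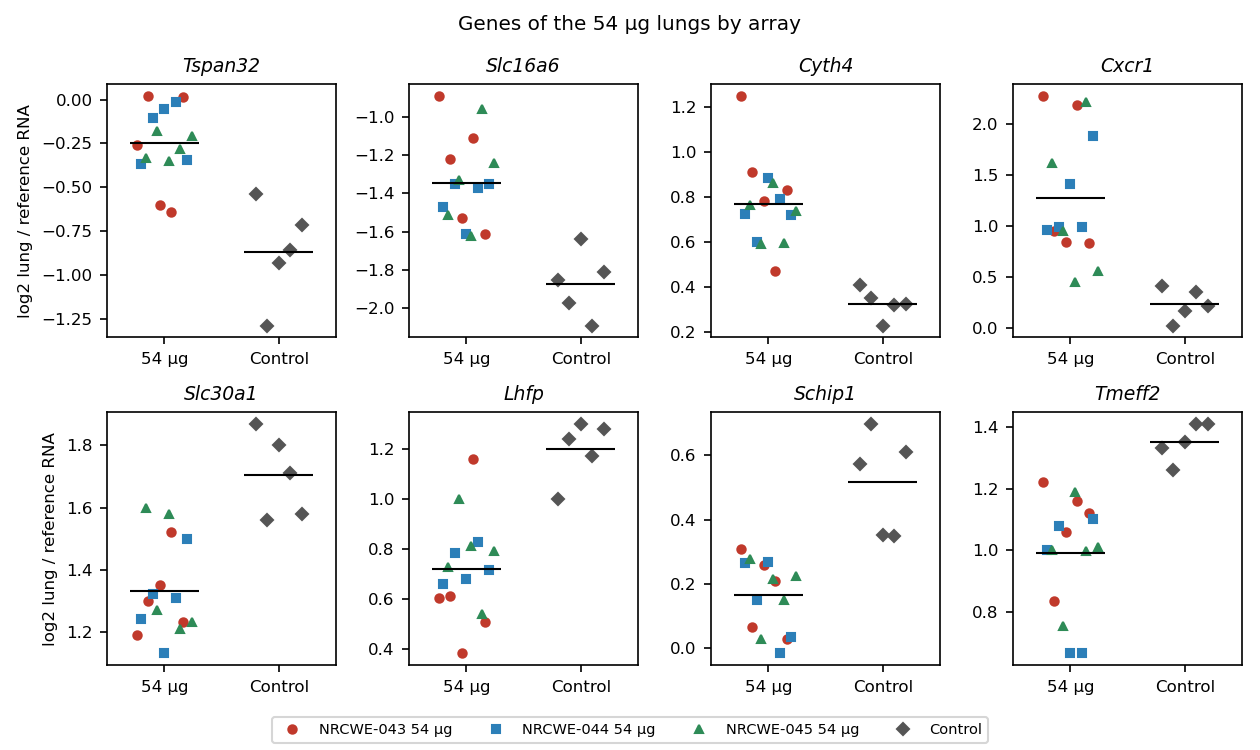
Level of 8 of the genes in each lung (log2 ratio to the reference RNA, vertical axis), with the 15 lungs at 54 µg, coloured by material, left of the 5 controls, and a line at each group's mean. Slc16a6, Cyth4 and Cxcr1 show no overlap between the groups, as do Schip1 and Tmeff2 in the other direction, while in Tspan32, Slc30a1 and Lhfp a few lungs overlap.

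The 12 named genes with the smallest p among those lower at 54 µg had differences between -0.58 and -0.25, with an adjusted p between 0.173 and 0.449. The materials gave -0.55 to -0.17 for NRCWE-043, -0.88 to -0.24 for NRCWE-044 and -0.69 to -0.14 for NRCWE-045, and the lungs at 18 µg -0.32 to -0.17, all against the same controls. Within the 4 slides with a control, 11 of the 12 were lower in the treated lungs each time, Dlc1 being the exception. Over all units, 8.90% were lower within all 4 slides. These 12 too were chosen by p in the same arrays, so their count adds nothing to that choice.

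Slc30a1, the transporter that moves zinc out of the cell and whose transcription responds to zinc through the metal-responsive factor MTF-1, had the smallest p of all named genes. Its levels were 1.13, 1.30 and 1.60 at 54 µg, and 1.87, 1.56, 1.80, 1.71 and 1.58 in the controls. The treated lungs lay low, and 13 of 15 were below every control. The difference was -0.37 (SE 0.07; 0.772-fold, 95% interval -0.52 to -0.23 on the log2 scale; adjusted p = 0.173). Its promoter is shown because the gene leads the list and its response element is well known. The sequence, from RefSeq on GRCm38.p6, covers chr1:191906531-191906830 on the plus strand, which is 250 bases before the gene's start and 50 after it. Capitals mark matches to TGCGCNC or TGCACNC, a core of the metal response element, searched on both strands. Both matches lie on the opposite strand, the first 43 bases before the start, and they do not overlap each other. The motif is common: 8444 of 32851 promoters of this length (25.7%) hold it.
Slc30a1: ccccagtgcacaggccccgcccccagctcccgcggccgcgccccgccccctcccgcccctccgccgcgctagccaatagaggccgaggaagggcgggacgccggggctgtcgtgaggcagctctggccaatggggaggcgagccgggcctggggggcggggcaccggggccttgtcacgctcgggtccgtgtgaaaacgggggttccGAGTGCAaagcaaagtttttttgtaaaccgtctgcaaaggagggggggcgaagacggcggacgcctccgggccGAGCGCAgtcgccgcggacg

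Lhfp, a member of a family of tetraspan membrane proteins, had levels of 0.38, 0.72 and 1.16 at 54 µg, and 1.00, 1.24, 1.30, 1.17 and 1.28 in the controls. The groups overlapped through control replicate 1, and 13 of 15 treated lungs were below every control. The difference was -0.48 (SE 0.10; adjusted p = 0.173). The gene 4930486L24Rik differed by -0.48 (SE 0.10), with 14 of 15 treated lungs below every control.

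A pair of these genes belongs to the Hippo pathway, which restrains growth and senses tension in the cell. Lats2, its kinase, differed by -0.34 (SE 0.08; -0.19 with a second probe), and Wwtr1, the coactivator TAZ that the kinase holds in check, by -0.32 (SE 0.08). Schip1, whose protein binds merlin, another regulator of that pathway, had levels of -0.02, 0.21 and 0.31 at 54 µg and 0.57, 0.70, 0.35, 0.35 and 0.61 in the controls. Its groups did not overlap, and the difference was -0.35 (SE 0.08). Dlc1 differed by -0.30 (SE 0.08).

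Tnfrsf12a, the receptor Fn14 for the cytokine TWEAK, had the largest difference of the 12 lower genes and the least even one. Its levels were -3.71, -3.19 and -2.43 at 54 µg, and -2.52, -2.13, -2.59, -2.99 and -2.90 in the controls. The difference was -0.58 (SE 0.14), made of -0.17 for NRCWE-043, -0.88 for NRCWE-044 and -0.69 for NRCWE-045 (SE 0.18 each). The 3 materials differed at an unadjusted p of 0.00088 in limma's F test, which did not pass adjustment over all units. Ctla2b, which resembles the propeptide of cysteine proteases and has a close relative in Ctla2a, differed by -0.37 (SE 0.09), Snapc5, a subunit of the complex that starts transcription of small nuclear RNAs, by -0.32 (SE 0.08), the transcriptional coregulator Sertad2 by -0.27 (SE 0.06), and the flavin monooxygenase Fmo4 by -0.25 (SE 0.06).

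Complete separation of the 15 treated lungs from the 5 controls was rare. In 7 units every treated lung was above every control (0.0239%), and in 4 every treated lung was below every control (0.0136%). Among the 7 were Slc16a6, Cyth4 and Rgs16, together with Cxcr1 and Gda. Cxcr1, a receptor for neutrophil-attracting chemokines, had levels of 0.45, 0.99 and 2.28 at 54 µg, and 0.41, 0.02, 0.16, 0.35 and 0.22 in the controls. The lowest treated lung lay only just above the highest control, and the difference was 1.04 (SE 0.29; 2.06-fold). Gda, a guanine deaminase, differed by 0.44 (SE 0.13), or 0.25 with a second probe. The 4 lower units were Schip1, Tmeff2, Zfp422 and Map6. Tmeff2, a transmembrane protein with follistatin-like domains, differed by -0.36 (SE 0.11), the zinc finger protein Zfp422 by -0.24 (SE 0.08) and Map6, which stabilizes microtubules, by -0.23 (SE 0.08). A second probe gave -0.05 for Tmeff2 and 0.04 for Map6, opposite in sign.

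Inflammatory and lysosomal genes known from nanotube-exposed lungs were higher by mean, with a wide spread. This panel of 20 genes was chosen with earlier results of these data known. All 20 differences were above 0, where 49.3% of all units were, their median was 0.55, and 9 had an unadjusted p under 0.05 with the sign higher (2.85% over all units). Saa3, the serum amyloid A made in lung and by macrophages, had levels of -3.74, -2.90 and 0.44 at 54 µg, and -3.14, -4.02, -4.43, -3.73 and -4.02 in the controls. In 8 of 15 treated lungs it was above every control, and the difference was 1.23 (SE 0.42; 2.34-fold, 95% interval 0.38 to 2.08 on the log2 scale; adjusted p = 0.688).

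Trem2, a lipid-sensing receptor of macrophages, had levels of -1.89, -1.18 and -0.29 at 54 µg, and -1.41, -2.16, -2.63, -2.08 and -1.98 in the controls. Control replicate 1 was the only control within the treated range, and the difference was 0.86 (SE 0.25). Gpnmb, a glycoprotein of macrophages with loaded lysosomes, differed by 0.73 (SE 0.24), and 12 of 15 treated lungs were above every control. The lysosomal cysteine protease Ctsk had levels of 2.53, 2.89 and 3.62 at 54 µg, and 2.82, 2.11, 2.02, 2.43 and 2.71 in the controls, a difference of 0.63 (SE 0.19). Slc26a4, the anion exchanger pendrin of airway epithelium, differed by 1.24 (SE 0.51), but control replicate 1, at 3.75, was above the treated median of 3.40.

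Ccl9, a chemokine that attracts monocytes and dendritic cells, had levels of -0.50, 0.15 and 1.51 at 54 µg, and -0.26, -0.76, -0.70, -0.27 and -0.70 in the controls. In 13 of 15 treated lungs it was above every control, and the difference was 0.76 (SE 0.24). Lcn2, which starves bacteria of iron, differed by 0.51 (SE 0.24). Jchain, which joins the polymers of secreted antibodies, differed by 1.11 (SE 0.36), with 0.78 for NRCWE-043, 1.76 for NRCWE-044 and 0.78 for NRCWE-045. In NRCWE-045, replicate 4 had a level of -0.04, where the other lungs of that material lay between -2.27 and -1.91. Without that lung the pooled difference was 0.97.

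The rest of the panel had intervals that reached 0. Ccl2, the main attractant of monocytes, differed by 0.45 (95% interval -0.05 to 0.96) and the neutrophil chemokines Cxcl1 and Cxcl5 by 0.59 (-0.06 to 1.25) and 1.04 (-0.13 to 2.21). Cxcl1 was well above background on 12 of the 15 treated arrays and 3 of the 5 controls, and Cxcl5 on 14 and 3. Il1b, Timp1, Ccl17, Mmp12, Spp1, Cxcl13, Arg1 and Hmox1 lay between 0.08 (Hmox1) and 0.26 (Il1b), and Mmp12, the macrophage elastase, was well above background on 6 treated and 1 control array. Leaving out 1 control moved Cxcl13, Hmox1, Arg1, Spp1 and Ccl17 by more than 1.5 times in either direction, and turned Cxcl13 to -0.02 (replicate 3) and Hmox1 to -0.11 (replicate 5).

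**Figure D3:**
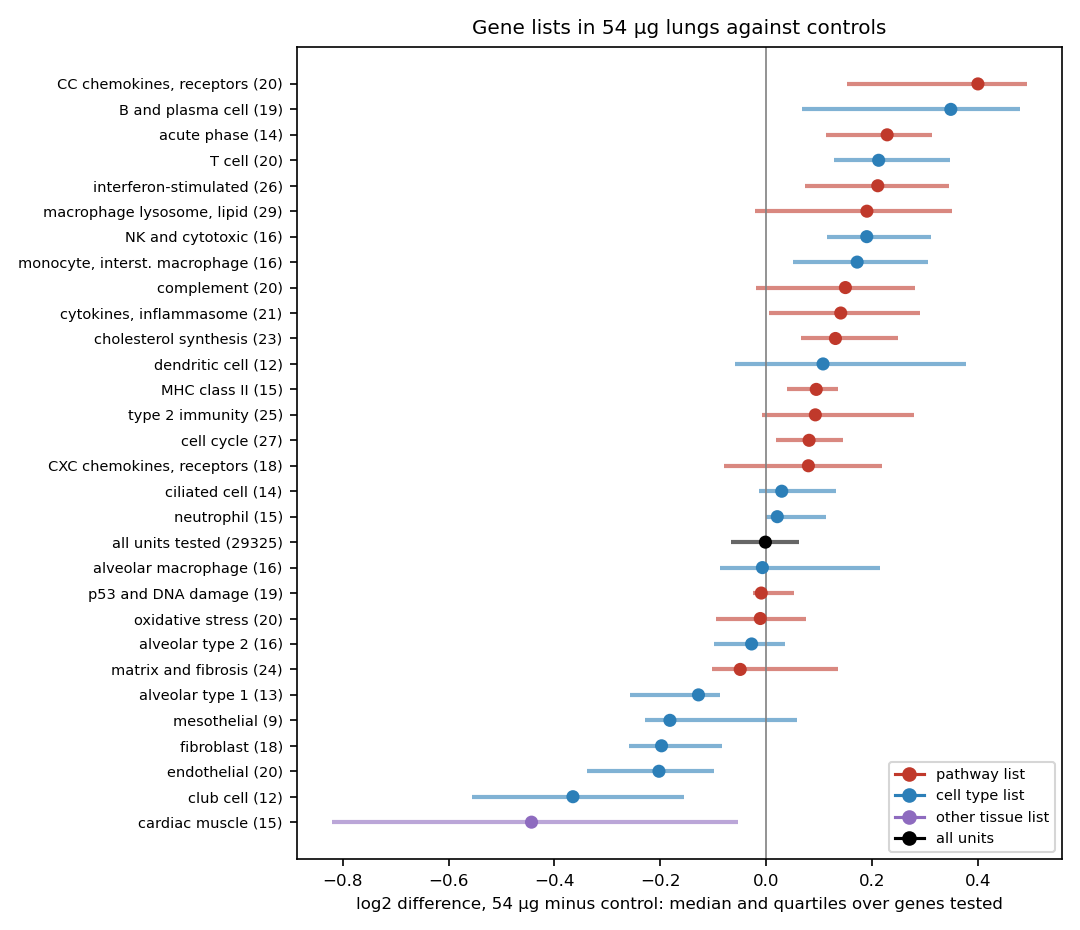
Median difference of each gene list between the lungs at 54 µg and the controls (log2, horizontal axis), with a bar between the quartiles of the genes tested, whose number stands beside the list's name, and the lists down the page. CC chemokine, B cell and T cell lists lie above 0, and endothelial, fibroblast and club cell lists below it.

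CC chemokines and their receptors stood highest among the pathway lists. Of 20 tested, 18 differences were above 0, with a median of 0.40, and 7 had an unadjusted p under 0.05 (higher; 2.85% over all units). The median over all units was -0.0017. The median was 0.34 for NRCWE-043, 0.46 for NRCWE-044 and 0.28 for NRCWE-045, and 0.09 for the lungs at 18 µg. The acute phase list had a median of 0.23 (11 of 14 above 0), or 0.15 without NRCWE-043 replicate 1. By material its median was 0.19 for NRCWE-043, 0.31 for NRCWE-044 and 0.09 for NRCWE-045. Cytokines with the inflammasome had 0.14 (16 of 21 above 0, 8 with an unadjusted p under 0.05), or 0.34 with the scanner software's processed signals. The CXC chemokines and their receptors had a median of 0.08, and leaving out 1 array moved it to -0.02 (control replicate 3), 0.01 (NRCWE-043 replicate 1), 0.02 (control replicate 2 or NRCWE-044 replicate 1), 0.03 (control replicate 5), 0.05 (NRCWE-045 replicate 3) or 0.18 (control replicate 1).

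Genes of macrophage lysosomes and lipid handling had a median of 0.19, with 21 of 29 above 0 and 8 below. Of the 29, 11 had an unadjusted p under 0.05, all higher (2.85% over all units). Ctss, a protease of antigen-presenting cells, had levels of 1.63, 2.17 and 2.85 at 54 µg, and 2.17, 1.13, 1.40, 1.47 and 1.93 in the controls. The groups overlapped, with 8 of 15 treated lungs above every control, and the difference was 0.61 (SE 0.18). The scavenger receptor Msr1 differed by 0.53 (SE 0.15), or 0.19 with a second probe. Markers of resident alveolar macrophages had a median of -0.01 (8 of 16 above 0), while those of monocytes and interstitial macrophages had 0.17 (13 of 16). Among the latter were Ms4a7 with 0.60 (SE 0.21) and the fractalkine receptor Cx3cr1 with 0.50 (SE 0.19), whose second probe gave -0.00. Leaving out control replicate 3 took the monocyte and interstitial macrophage median to 0.10. With the marker scores of heart, skeletal muscle, fat and liver as covariates it was 0.35, and the alveolar macrophage median was 0.21. The neutrophil list had a median of 0.02, or 0.20 with those covariates. Of its 15 genes, 0 had an unadjusted p under 0.05 (2.85% higher and 2.77% lower over all units).

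Lymphocyte markers were among the highest lists. Of 19 B cell and plasma cell genes, 18 were above 0 (49.3% over all units), with a median of 0.35. An unadjusted p under 0.05 was reached by 9, all higher (2.85% over all units). NRCWE-043 gave a median of 0.33, NRCWE-044 one of 0.42, NRCWE-045 one of 0.32 and the lungs at 18 µg one of 0.26. Ms4a1, the B cell antigen CD20, had levels of -0.45, 0.25 and 0.85 at 54 µg, and -0.17, -1.62, -0.08, -0.57 and -0.06 in the controls. Control replicate 2 lay far below the others, and the difference of 0.74 (SE 0.24) became 0.46 without it. Pou2af1, a B cell coactivator, differed by 0.60 (SE 0.20).

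Of 20 T cell genes, 19 were above 0, with a median of 0.21. An unadjusted p under 0.05 was reached by 8, all higher (2.85% over all units). The kinase Lck had levels of -0.50, 0.06 and 0.60 at 54 µg, and -0.09, -1.11, -0.17, -0.85 and -0.45 in the controls, a difference of 0.54 (SE 0.17) with 8 of 15 treated lungs above every control. Ccr7, the receptor that guides T cells and dendritic cells to lymphoid tissue, differed by 0.59 (SE 0.21), or 0.39 without control replicate 2. All 16 genes of natural killer and cytotoxic cells were above 0, with a median of 0.19, which was 0.32 without control replicate 1 and 0.12 without control replicate 3. Eomes, a transcription factor of those cells, differed by 0.34 (SE 0.13).

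Dendritic cell genes had a median of 0.11 (0.24 with processed signals), with 7 of 12 above 0 and 5 below. Of the 12, 5 had an unadjusted p under 0.05, all higher (2.85% over all units). Among these were the integrin Itgax with 0.38 (SE 0.12), Batf3, needed for cross-presenting dendritic cells, with 0.39 (SE 0.11), and Irf4 with 0.38 (SE 0.13). Genes of MHC class II had a median of 0.09 (13 of 15 above 0), which was 0.16 without control replicate 1, 0.04 without control replicate 2 and 0.06 without NRCWE-043 replicate 1. The thymus list, kept as a check for stray thymic tissue, had a median of 0.08 (7 of 8 above 0), which was 0.03 without NRCWE-044 replicate 1 and 0.12 without control replicate 1. Its part in the lymphocyte values was not tested.

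**Figure D4:**
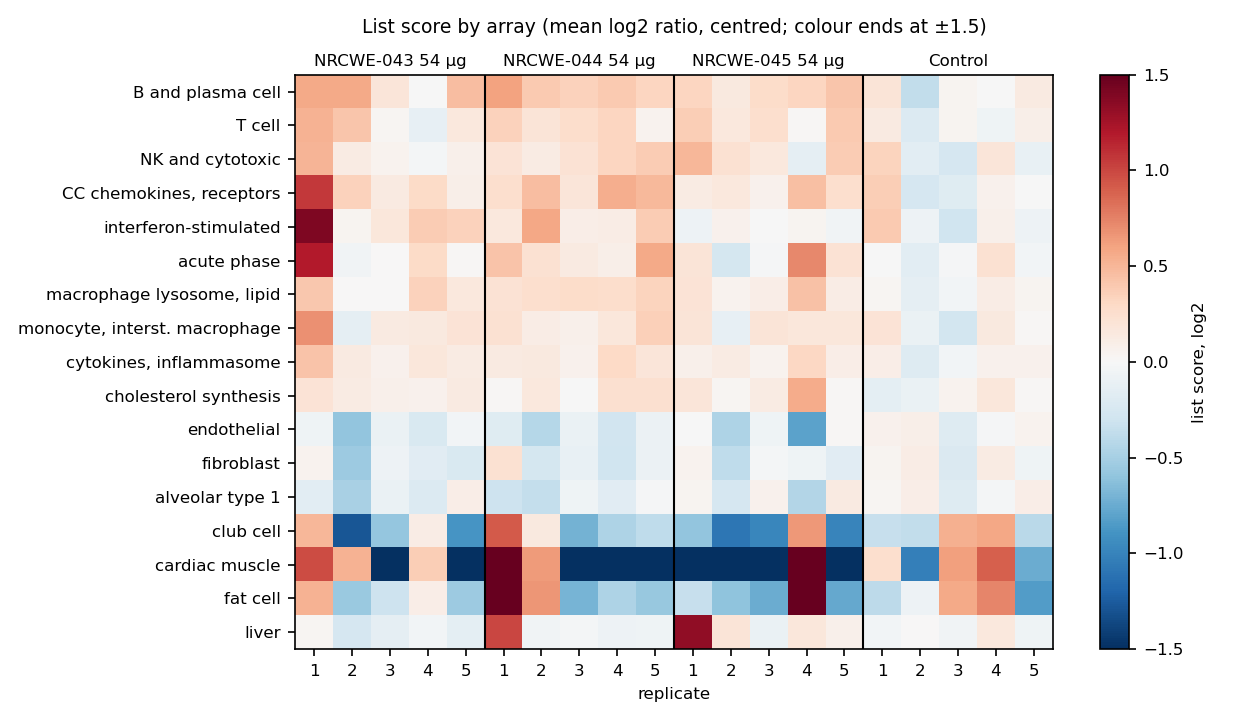
Heatmap of the score of each gene list (rows) in each lung (columns, by replicate), the lungs at 54 µg left of the controls. The score is the mean log2 level of the list's genes minus the mean of the controls, in colours that end at ±1.5. NRCWE-043 replicate 1 stands at 1.40 in the interferon list, and NRCWE-045 replicate 4 at 2.39 in the heart muscle list.

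Interferon-stimulated genes had a median of 0.21, with 24 of 26 above 0. An unadjusted p under 0.05 was reached by 7, all higher (2.85% over all units), but the materials were uneven. The median was 0.40 for NRCWE-043, 0.22 for NRCWE-044 and -0.04 for NRCWE-045, and -0.0042 for the lungs at 18 µg. Without NRCWE-043 replicate 1, whose list score was 1.40 where the other 4 lungs of that material had 0.04 to 0.38, the pooled median was 0.14, and without control replicate 3 it was 0.11. Oas1a, which makes the second messenger that activates RNase L on viral RNA, had levels of -0.61, -0.10 and 2.02 at 54 µg, and -0.06, -1.22, -1.14, -0.59 and -0.76 in the controls. The highest value was again NRCWE-043 replicate 1, and the difference was 0.81 (SE 0.26). Oas2, of the same family, differed by 0.70 (SE 0.21) and Usp18, which removes the ubiquitin-like ISG15, by 0.43 (SE 0.13).

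By material, the mean level of Oas2 was 0.43 ± 0.73 for NRCWE-043, 0.13 ± 0.38 for NRCWE-044 and -0.40 ± 0.25 for NRCWE-045, against -0.65 ± 0.36 in the controls (SD, n = 5 each). For Usp18 the limma F test among the materials had an unadjusted p of 0.00301 and for Oas2 one of 0.0112, neither of which passed adjustment. Ddx58, the RNA sensor RIG-I, differed by 0.21 (SE 0.08), while a second probe gave -0.02.

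The promoters of Oas1a and Ddx58 are shown because interferon acts through a defined element, which can be read in them. They come from RefSeq on GRCm38.p6, again with 250 bases before the gene's start and 50 after it: chr5:120907476-120907775 on the minus strand for Oas1a, and chr4:40239776-40240075 on the minus strand for Ddx58. Capitals mark matches to 2 GAAA repeats with any 2 bases between them, the core of the interferon-stimulated response element, searched on both strands. Oas1a has 2 overlapping matches that begin 20 bases before the start, and Ddx58 has 1 match just after it, on the opposite strand. Promoters of Oas2 and Usp18 were also looked up but were missing from the source used, so the element was not searched in them. The motif occurs in 1131 of 32851 promoters of this length (3.44%), and a match is a description of the letters, not of a bound site.
Oas1a: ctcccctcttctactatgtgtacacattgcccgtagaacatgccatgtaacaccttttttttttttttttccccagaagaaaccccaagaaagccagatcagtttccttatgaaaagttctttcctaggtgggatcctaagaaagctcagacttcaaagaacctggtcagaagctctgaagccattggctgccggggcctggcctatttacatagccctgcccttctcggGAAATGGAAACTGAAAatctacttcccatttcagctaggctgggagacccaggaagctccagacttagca
Ddx58: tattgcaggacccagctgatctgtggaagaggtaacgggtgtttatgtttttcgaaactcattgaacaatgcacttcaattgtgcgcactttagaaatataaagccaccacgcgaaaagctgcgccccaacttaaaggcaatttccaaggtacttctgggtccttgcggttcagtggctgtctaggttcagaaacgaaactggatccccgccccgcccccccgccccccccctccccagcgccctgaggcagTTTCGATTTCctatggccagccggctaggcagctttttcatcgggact

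Genes of cholesterol synthesis had a median of 0.13, with 22 of 23 above 0. An unadjusted p under 0.05 was reached by 5, all higher (2.85% over all units). Insig1, the sterol sensor that holds back the pathway, had levels of -0.59, -0.10 and 0.36 at 54 µg, and -0.48, -0.07, -0.66, -0.41 and -0.43 in the controls. One control stood near the treated median, and the difference was 0.31 (SE 0.13). Hmgcs1, an early enzyme of the pathway, differed by 0.31 (SE 0.13). Without control replicate 1 the list's median was 0.08, and without control replicate 2 it was 0.09. Complement genes had a median of 0.15 (14 of 20 above 0), or 0.09 without control replicate 3.

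Among the lung's structural cells, endothelial, fibroblast, alveolar type 1 and club cell lists had medians below 0. The ciliated cell list stood at 0.03 (8 of 14 above 0) and the alveolar type 2 list at -0.03. At 18 µg, against the same controls, the medians were -0.17 (endothelial), -0.18 (fibroblast), -0.09 (alveolar type 1) and -0.36 (club cell). All 20 endothelial genes were below 0, where 50.7% of all units were, with a median of -0.20, and 4 had an unadjusted p under 0.05 (lower; 2.77% over all units). Ednrb, the endothelin receptor of capillary cells, had levels of 2.21, 2.65 and 3.24 at 54 µg, and 3.18, 3.27, 2.95, 3.07 and 3.19 in the controls. In 12 of 15 treated lungs it was below every control, and the difference was -0.48 (SE 0.15). The endothelial adhesion molecule Pecam1 differed by -0.35 (SE 0.15) and Prx, periaxin, by -0.34 (SE 0.11).

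Of 18 fibroblast genes, 15 were below 0, with a median of -0.20. An unadjusted p under 0.05 was reached by 4, all lower (2.77% over all units). Tcf21, a transcription factor of lung fibroblasts that store lipid, had levels of 2.91, 3.94 and 4.49 at 54 µg, and 4.45, 4.40, 4.16, 4.85 and 4.64 in the controls. In 12 of 15 treated lungs it was below every control. The difference was -0.71 (SE 0.19; 0.613-fold, 95% interval -1.09 to -0.32 on the log2 scale; adjusted p = 0.480), made of -1.02 for NRCWE-043, -0.44 for NRCWE-044 and -0.65 for NRCWE-045. Col13a1, a membrane collagen of matrix fibroblasts, differed by -0.39 (SE 0.13). Postn, the matrix protein periostin, differed by -0.37 (SE 0.15), and the list of matrix and fibrosis genes as a whole had a median of -0.05, with 10 of 24 above 0.

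The median over alveolar type 1 genes was -0.13 (11 of 13 below 0), with Emp2, a tetraspan protein of those cells, at -0.26 (SE 0.08) and -0.01 with a second probe. All 12 club cell genes were below 0, with a median of -0.37 that was -0.23 without control replicate 3. Only the claudin Cldn10 (-0.49, SE 0.24) had an unadjusted p under 0.05 (lower; 2.77% over all units). The medians of the materials were -0.34 for NRCWE-043, -0.02 for NRCWE-044 and -0.41 for NRCWE-045. The list of type 2 immunity had a median above 0, at 0.09 (17 of 25 above 0), or 0.02 without control replicate 2. Of its members, 1 was higher and 1 lower at an unadjusted p under 0.05 (2.85% and 2.77% over all units). The lower one, the receptor Il4ra, differed by -0.28 (SE 0.11), and its second probe gave -0.01. By material Il4ra had -0.02 for NRCWE-043, -0.43 for NRCWE-044 and -0.40 for NRCWE-045.

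Heart muscle markers had a median below 0 like the structural lists, while other tissue lists did not. The skeletal muscle, fat and liver lists had medians of 0.13, 0.11 and 0.12. The heart muscle median was -0.44, with 12 of 15 below 0. The mean score of heart muscle ran from -1.90 to 2.39 in the lungs at 54 µg and from -1.03 to 0.90 in the controls. Myh6 differed by -2.47 (SE 1.16) and by 0.04 with a second probe. Leaving out 1 array moved the median to -0.15 (control replicate 4), -0.70 (control replicate 2 or NRCWE-044 replicate 1) or -0.75 (NRCWE-045 replicate 4). With the marker scores of heart, skeletal muscle, fat and liver as covariates, the median of the endothelial list was -0.12, of the fibroblast list -0.05, of the alveolar type 1 list -0.07 and of the club cell list -0.15, while the CC chemokine list had 0.51, the interferon list 0.50, the B cell and plasma cell list 0.32, the T cell list 0.29, the monocyte and interstitial macrophage list 0.35, the natural killer list 0.32, the complement list 0.25, the CXC chemokine list 0.26 and the MHC class II list 0.05.

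With slide as a block the CC chemokine median was 0.37, the B cell and plasma cell median 0.42, the T cell median 0.31, the endothelial median -0.17, the club cell median -0.26 and the fibroblast median -0.11, against -0.20 without the block. With the scanner software's processed signals the endothelial median was -0.08, the fibroblast median -0.09, the natural killer median 0.30, the monocyte and interstitial macrophage median 0.29 and the MHC class II median 0.16. The alveolar type 1 median was -0.06 with median centring, the CXC chemokine median 0.17 with slide as a block, and the CC chemokine median 0.25 with no filter on dim probes. Lists of oxidative stress and of p53 and DNA damage genes had medians of -0.01 each, and 9 of 20 and 8 of 19 members lay above 0. These medians, and those of the matrix and fibrosis, alveolar type 2, alveolar macrophage and neutrophil lists, changed sign under 1 or more of the alternatives, median centring or processed signals among them for all but the neutrophil list. The cell cycle list had a median of 0.08 (21 of 27 above 0, 49.3% over all units). An unadjusted p under 0.05 was reached by 0 of 27 (2.85% higher and 2.77% lower over all units). The cell cycle median was 0.17 without control replicate 1 and 0.03 without control replicate 2.

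Single genes moved with the same settings. With the 4 tissue scores as covariates, some differences came nearer 0 by more than 1.5 times. They were those of Postn (-0.02), Tcf21 (-0.38), Col13a1 (-0.13), Ednrb (-0.27), Pecam1 (-0.16) and Cldn10 (-0.18). Those of Il4ra (-0.08), Schip1 (-0.22), Tmeff2 (-0.22), Irf4 (0.11) and Ccnjl (0.04) did so too. Myh6 stood at -0.67, but the heart muscle score is itself a mean of heart muscle genes, so that shift was built in. With those scores Saa3 stood at 2.04, Cxcl5 at 2.01, Slc26a4 at 2.13, Oas1a at 1.38, Oas2 at 1.09, Ms4a7 at 1.06, Ccl2 at 0.87, Lcn2 at 0.83, Usp18 at 0.70, Cxcl13 at 0.59, Hmgcs1 at 0.49, Spp1 at 0.42, Timp1 at 0.38 and Hmox1 at 0.24.

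With processed signals Cxcr1 differed by 2.41, Cxcl5 by 1.98, Cxcl1 by 1.60, Msr1 by 1.5, Eomes by 1.04, Rgs16 by 0.98, Mmp12 by 0.91, Arg1 by 0.81 and Il1b by 0.41. Col13a1 differed by -1.35 there, Fmo4 by -0.40, Cldn10 by -0.30, Ednrb by -0.23 and Cxcl13 by -0.01. With slide as a block Cxcl13 stood at 0.46, Hmox1 at 0.13 and Mmp12 at 0.10, and with median centring Hmox1 stood at 0.16, Spp1 at 0.21 and Map6 at -0.14.

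The 3 materials were compared with each other at 54 µg by an F test in which the controls entered only the estimate of the spread, as did the lungs at 18 µg. Limma called 1 of 29325 units (0.00341%), Spon2, an extracellular matrix protein that helps macrophages take up microbes (adjusted p = 0.0384), and 1364 units (4.65%) had an unadjusted p under 0.05. A fit that kept slide as a block called Spon2 and the tubulin Tubb4b (0.00682%), the second named here after its value was seen, and 9.79% of units had an unadjusted p under 0.05. Spon2 had a mean level of -0.24 ± 0.71 for NRCWE-043, with single lungs between -0.99 and 0.84, against -2.35 ± 0.68 for NRCWE-044 and -2.70 ± 0.52 for NRCWE-045 (SD, n = 5 each). The lungs of NRCWE-043 lay above all those of the other materials, and the controls averaged -2.01 ± 0.54 (n = 5). On the 54 µg arrays alone 5 units passed, Spon2 among them. The call was lost with the scanner software's processed signals, with a variance trend and robust moderation, with the 4 tissue scores as covariates, and when any of 12 of the 15 arrays was left out.

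The arrays at 18 µg, which the test did not use for its means, gave Spon2 levels of -0.34 ± 0.51 for NRCWE-043 (n = 5), -2.42 ± 0.49 for NRCWE-044 (n = 6) and -2.10 ± 1.48 for NRCWE-045 (n = 3). The NRCWE-043 lungs again had the higher mean, and 1 lung of NRCWE-045, at -0.40, lay among them. The next genes did not pass (adjusted p between 0.101 and 0.123). They were the tetraspanin Tspan4, with mean levels of -0.91 for NRCWE-043, 0.15 for NRCWE-044 and 0.29 for NRCWE-045, the acetyltransferase Nat8, in the same order of materials, with 0.70, 1.48 and 1.16, the cyclin-like Ccnjl with -1.09, -2.00 and -2.09, the tubulin Tubb2a with 1.23, 0.80 and 0.74, and the clock-controlled transcription factor Hlf with 1.09, 1.88 and 2.05. In Tspan4, Nat8 and Hlf the lungs of NRCWE-043 were low, and in Ccnjl and Tubb2a high, while the controls averaged 0.12, 1.14, 1.78, -1.89 and 0.94 in that order of genes.

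**Figure D5:**
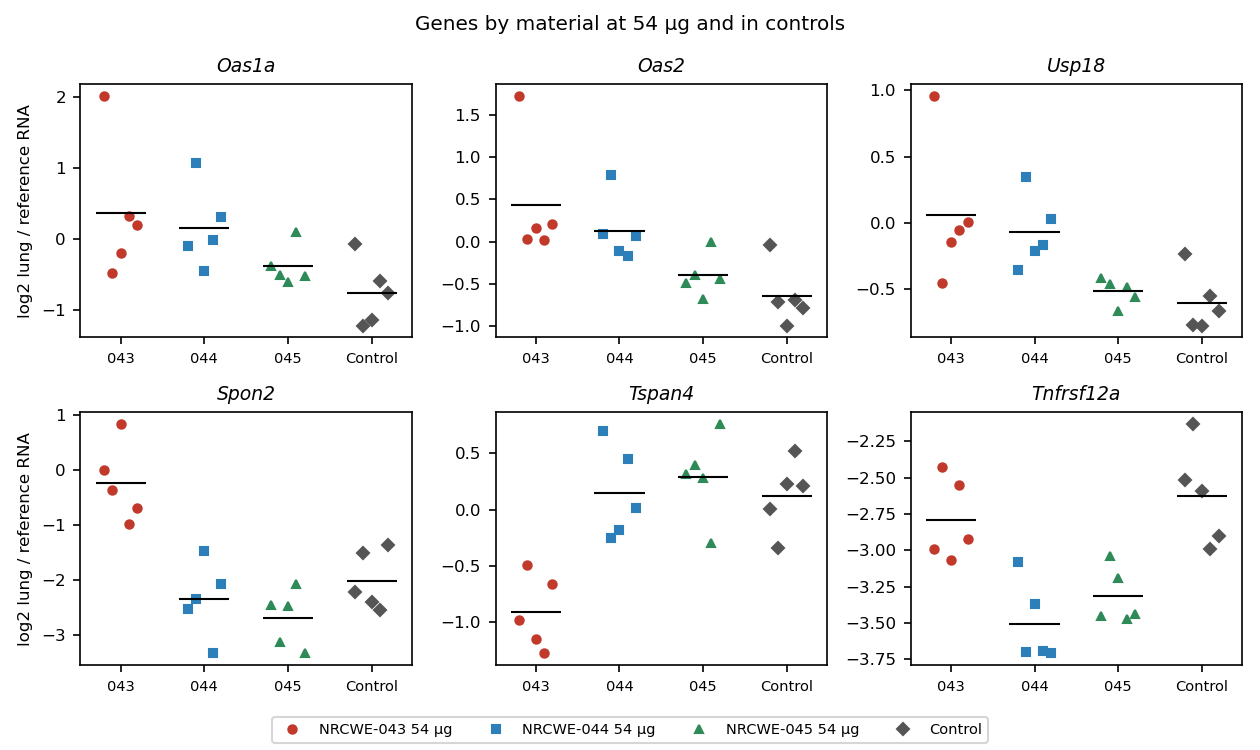
Level of 3 interferon-stimulated genes, Spon2, Tspan4 and Tnfrsf12a (log2 ratio to the reference RNA, vertical axis) in each lung at 54 µg, by material, left of the controls, with a line at each mean. In Spon2 the lungs of NRCWE-043 lie between -0.99 and 0.84, above all lungs of the other materials.

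The lungs at 54 µg were also set against the 14 lungs at 18 µg, again with each material at equal weight. Limma called 0 of 29325 units (0%), with a smallest adjusted p of 0.9999, and 1090 units (3.72%) had an unadjusted p under 0.05. The smallest p belonged to E230025N22Rik, with a 54 minus 18 µg difference of 0.47 (SE 0.11), and Zfp280b, with 0.20 (SE 0.05). Lower at 54 than at 18 µg by the same measure were the DNA damage-linked zinc finger protein Zfp365 with -0.21 (SE 0.06) and Actg1, cytoskeletal actin, with -0.20 (SE 0.05). None of these passed.

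Dose values are given side by side for genes picked after their values were seen, since both doses share the controls. For Tspan32, Plcl2, Ms4a1 and Zap70 the lungs at 18 and at 54 µg gave differences from the controls of 0.56 and 0.62, 0.47 and 0.51, 0.77 and 0.74, and 0.32 and 0.36. For Ctsk, Trem2, Ms4a7, Cxcr1 and Saa3 the values at 18 µg were 0.08, 0.30, 0.08, 0.42 and 0.51, and those at 54 µg 0.63, 0.86, 0.60, 1.04 and 1.23. The 54 minus 18 µg difference of Ctsk was 0.55 (SE 0.14) and that of Trem2 0.56 (SE 0.19). That of Tspan32 was 0.06 (SE 0.09), and none passed adjustment over all units.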

How the data were processed

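Per the file headers, spots were read by the authors with version 11.0.1.1 of Agilent's Feature Extraction. Scanner files as deposited hold, per spot and channel, the median intensity of the spot and of its background, and a processed intensity. The deposited series table holds log2 Cy5 over Cy3 per probe, near 0 at each array's median; the sources used here do not give its steps. Across probes it correlated with the log2 ratio of the deposited intensities at 0.935 to 0.989. 

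Background was corrected by normexp (offset 50) and ratios by loess within each array, with control and irregular spots at weight 0 (limma 3.58.1, statmod 1.5.0, R 4.3.3). Of 55681 probes, 27235 were named through RefSeq accessions, which gave 20660 genes, each read from its brightest probe by mean Cy5. A unit was tested where its Cy5 signal was well above background on 3 or more of the 34 arrays. A model with 7 group means was fitted to all arrays, and p-values were adjusted by the Benjamini-Hochberg method at 0.05 over 29325 units, of which 114 had a missing value on some array. No spot was saturated (0), no arrays were identical (0 pairs), and the number of arrays limits precision.

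Slide was tried as a fixed and as a random block, and the other alternatives are given at the end. Genes named are the 12 with the smallest p in each direction, up to 4 per list by p, the 20 panel genes, up to 6 by the F test of the materials, up to 5 per direction with no overlap, and up to 4 per direction by dose. The members and the 39 gene lists were chosen with earlier results of these data known. Simulated arrays of the pooled comparison had 29211 units and independent noise of equal spread in all groups. They had no slide effect, and a changed unit moved by the same amount in every treated lung. There 80% of the 1.5-fold changes and 97% of the 2-fold changes were recovered, with 10 false calls. In the data, arrays of a slide were correlated (0.29 in the random block fit), so these shares do not carry over to the real lungs.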

Additional observations from a re-analysis of the deposited data

Results flagged for a closer look

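Values of single arrays that stood apart from the other 4 of their group are given here. Of 500 groups of 5 arrays checked (named genes and list scores), 40 had such an array, and chance alone gives about 1 in 20 groups. They fell on NRCWE-045 replicate 4 in 11 cases, on NRCWE-043 replicate 1 in 8, and on control replicate 1 and NRCWE-044 replicate 1 in 4 each. Levels are log2 ratios to the reference RNA, and scores are relative to the controls.

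NRCWE-045 replicate 4 had Rgs16 at -0.87, Ctla2b at 3.78, Gda at 2.68, Jchain at -0.0437, Ms4a7 at 0.87 and Myh6 at 6.80, where the other lungs of its group had at most 1.18 for Myh6. Its heart muscle score was 2.39, its fat score 2.22, its club cell score 0.65, its type 2 immunity score 0.98 and its cytokine score 0.31.

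NRCWE-043 replicate 1 had Rgs16 at -0.19 and Oas2 at 1.72. Its scores were 1.40 for interferon-stimulated genes, 1.19 for the acute phase, 1.06 for CC chemokines, 1.08 for CXC chemokines, 0.43 for cytokines and 0.51 for natural killer cells. This array thus held the highest or near-highest scores of several inflammatory lists at once.

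NRCWE-043 replicate 4 had Apbb1ip at -1.19, Snapc5 at 1.00 and Eomes at 0.39, replicate 5 Zfp422 at 1.27 and Zfp365 at -0.18, and replicate 3 Map6 at 0.43. NRCWE-044 replicate 1 had Map6 at 0.27, Cxcl13 at 3.15, a B cell and plasma cell score of 0.61 and a liver score of 1.00, replicate 2 Oas2 at 0.79, and replicate 4 Zfp422 at 1.01. NRCWE-045 replicate 1 had a liver score of 1.33, and replicate 2 a monocyte score of -0.12 and an alveolar type 2 score of -0.20. Among the controls, replicate 1 had P2ry10b at 0.35, Lats2 at 1.64, Ddx58 at 0.79 and a cell cycle score of 0.47, replicate 2 Map6 at 0.94 and replicate 3 Snapc5 at 0.71.

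Spon2 differed between the materials at 54 µg (limma's F test, adjusted p = 0.0384).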

How the results depend on the processing

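The pooled comparison called 0 units in limma with its default settings. It called 1 with slide as a fixed block (Slc16a6), 4 with slide as a random block (Lhfp, Cyth4, Slc16a6 and Slc30a1), 3 with array weights (Lhfp, Tspan32 and Cyth4) and 6 with only the slides that held a control and slide as a block. Leaving out 1 array gave between 0 and 6 calls, 6 of them without NRCWE-043 replicate 4 and 0 otherwise, with 1105 (without control replicate 2) to 1862 units at an unadjusted p under 0.05. The F test of the materials called 1 unit. It called 2 with slide as a fixed block, 15 with slide as a random block, 5 on the 54 µg arrays alone, 6 with array weights, 0 with processed signals and 0 with trend and robust moderation. Leaving out 1 array gave 0 to 3 calls, and 0 for 12 of the 15. The comparison of 54 with 18 µg called 0 under every alternative run, with 877 to 1416 units at an unadjusted p under 0.05 when 1 array was left out. Where no cause is named, it was not tested.

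Of 3182 values of 86 named genes under the alternatives, 24 changed sign, in 9 genes, and 19 passed the threshold. Of 1443 list medians, 78 changed sign, in 15 lists. No paired analysis was possible because the sample numbers in the titles run on over the whole series and the groups share none. Spots near background, such as those of Cxcl1 and Mmp12, limit what can be measured, 5 controls limit every comparison, and 2 slides held none. Slide and scan day cannot be told apart, nor can what the controls received be read from the labels.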

Other observations

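More values of lists kept as checks for other tissue and for handling are given here. Each median difference between the lungs at 54 µg and the controls is followed by its range when 1 array was left out, and most ranges are wide. The liver list had 0.12 (0.03 without NRCWE-045 replicate 1, up to 0.16), the fat list 0.11 (-0.15 without NRCWE-044 replicate 1 to 0.31 without control replicate 4) and the skeletal muscle list 0.13 (0.04 without control replicate 1, up to 0.17). In each, 0 or 1 member had an unadjusted p under 0.05 (2.85% higher and 2.77% lower over all units). Fat scores ran from -0.77 to 3.19 in the lungs at 54 µg and from -0.84 to 0.73 in the controls.

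Ciliated cell genes had a median of 0.03 (-0.04 without control replicate 3 to 0.11 without control replicate 4), mesothelial genes of -0.18 (-0.29 without control replicate 3 to -0.07 without control replicate 1), and eosinophil and mast cell genes of 0.05 (0.03 without control replicate 3 to 0.09 without control replicate 1). The hemoglobin list had 0.04 (-0.0091 to 0.09), the clock list -0.10 (-0.15 to -0.05), the immediate early list 0.06 (-0.01 without control replicate 1 to 0.09 without NRCWE-043 replicate 4) and the heat shock list -0.05 (-0.15 without control replicate 4 to -0.00059 without control replicate 2). By material the heat shock median was 0.12 for NRCWE-043, -0.14 for NRCWE-044 and -0.35 for NRCWE-045, a difference that was not tested.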
